A study of Mus musculus with 48 samples.

Results

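This account covers 9 genes by which the mural cells of blood vessels are commonly recognised, of 31920 genes in each ventricle table and 31741 genes in the table of cell fractions. They were taken by symbol. Of these, 5 are used as pericyte markers (Rgs5, Abcc9, Pdgfrb, Cspg4 and Notch3) and 4 encode proteins of the smooth muscle contractile apparatus (Acta2, Myh11, Tagln and Cnn1). The mice, of the FVB strain, were either PLNR9C, a genotype with a mutation in phospholamban, the cardiomyocyte inhibitor of the sarcoplasmic calcium pump, or wild type, and received either JQ1 at 50 mg per kg or vehicle. JQ1 is an inhibitor of the BET bromodomain proteins, which bind acetylated chromatin. RNA was sequenced from whole left ventricle at an age of 8 weeks, labelled preDCM (before dilated cardiomyopathy), from ventricle at 20 weeks, labelled DCM, and from pools of cardiomyocytes and of the other heart cells (non-myocytes) at 16 weeks. The groups were PLNR9C given JQ1, PLNR9C given vehicle, wild type given JQ1 and wild type given vehicle in each of the 4 experiments, which makes 16 groups of 3 libraries and 48 libraries in all. The design text calls the 3 libraries individual biological replicates. The sources used here do not say how many animals went into a pool of cells, how cells were separated, how long JQ1 was given or how the mutation was introduced.

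Pericytes sit on capillaries and smooth muscle cells on arteries, arterioles and veins. Both answer to PDGF-B from the endothelium through the receptor kinase encoded by Pdgfrb, and Notch3 is the Notch receptor of mural cells. Rgs5 encodes a regulator that shortens G protein signals, Cspg4 the membrane proteoglycan NG2, and Abcc9 the sulfonylurea receptor SUR2, a subunit of ATP-sensitive potassium channels. SUR2 is not restricted to vessels: it pairs with Kir6.1 (Kcnj8) in mural cells and with Kir6.2 (Kcnj11) in ventricular cardiomyocytes. Acta2 encodes smooth muscle actin, Myh11 smooth muscle myosin heavy chain, Tagln transgelin and Cnn1 calponin, and these genes are classical targets of serum response factor (SRF) with its coactivator myocardin. Acta2 is also made by myofibroblasts and by immature cardiomyocytes.

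In the deposited tables, which use GRCm38 (mm10), Rgs5 at chr1:169655501-169693526 on the plus strand, Abcc9 at chr6:142587862-142702274 on the minus strand, Pdgfrb at chr18:61045150-61085067 on the plus strand, Cspg4 at chr9:56865104-56899870 on the plus strand and Notch3 at chr17:32120893-32166852 on the minus strand are the pericyte genes. The contractile genes are Acta2 at chr19:34241091-34255336 on the minus strand, Myh11 at chr16:14194527-14291408 on the minus strand, Tagln at chr9:45929628-45936058 on the minus strand and Cnn1 at chr9:22099253-22109221 on the plus strand. Each of these spans holds the whole gene, exons and introns. Libraries held 16984138 to 27086694 reads at 8 weeks, 18415351 to 26730918 at 20 weeks, 10249780 to 13146653 for cardiomyocytes and 10041094 to 11815003 for non-myocytes. Cnn1 was the thinnest of the 9 genes, with 6 to 61 reads at 20 weeks and 12 to 57 in cardiomyocytes, so its values carry the largest counting error. Hexim1, a gene known to rise under BET inhibition, averaged 102 ± 4.64 CPM (counts scaled to library size) in 20-week PLNR9C ventricles given JQ1 and 22.8 ± 1.84 in those given vehicle (SD, n = 3 each). Pln averaged 1788 ± 91.9 CPM in 20-week PLNR9C vehicle ventricles and 4188 ± 165 in wild-type vehicle ventricles. In PLNR9C JQ1 cardiomyocytes the 8 fibroblast markers summed to 1793, 5494 and 3245 CPM in replicates 1, 2 and 3. Replicate 2 was the highest, and replicates 1 and 3 differed from each other as well. By the chi-square per gene between the counts of 2 libraries, the cardiomyocyte library furthest from the rest of its group was PLNR9C JQ1 replicate 2 (59.4 and 28.5, with 23.4 between the other 2), PLNR9C vehicle replicate 3 (48.1 and 35.3, with 17.8), wild-type JQ1 replicate 3 (33.4 and 29.1, with 7.23) and wild-type vehicle replicate 3 (13.3 and 10.7, with 4.89). Values without these libraries stand beside the cardiomyocyte results. Exons of Abcc9 (158 bases), Notch3 (488) and Tagln (108 with Pcsk7 and 1241 with Gm48529) overlap genes on the other strand, and the sources used here do not say whether reads were counted by strand.

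The cell fractions divided the 9 genes unevenly. Averaged over the 4 groups of a fraction, 7 of them were lower in cardiomyocytes than in non-myocytes, while Abcc9 and Acta2 were not, so the data go against a purely mural label for these 2. Per length, in the deposited RPKM (reads scaled to gene length and library size), Pdgfrb averaged 13.98 ± 7.58 RPKM in cardiomyocytes and 103 ± 21.5 RPKM in non-myocytes (SD over the 12 libraries of each fraction), a ratio of 0.136. Ratios were alike for Notch3 (0.148), Myh11 (0.149), Tagln (0.152), Rgs5 (0.173) and Cnn1 (0.218), and higher for Cspg4 (0.478). Abcc9 averaged 46.9 ± 13.0 RPKM in cardiomyocytes and 40.4 ± 16.3 RPKM in non-myocytes, a ratio of 1.16. In vehicle groups its mean RPKM was 35.7 in PLNR9C cardiomyocytes against 29.7 in PLNR9C non-myocytes, and 59.6 in wild-type cardiomyocytes against 64.4 in wild-type non-myocytes. Acta2 averaged 143 ± 86.9 RPKM in cardiomyocytes and 112 ± 32.0 RPKM in non-myocytes, a ratio of 1.28 that was not the same in both genotypes: its mean RPKM in vehicle groups was 232 in PLNR9C cardiomyocytes against 77.3 in PLNR9C non-myocytes, and 57.9 in wild-type cardiomyocytes against 147 in wild-type non-myocytes. For Cspg4 the mean RPKM in vehicle groups was 2.58 in wild-type cardiomyocytes against 14.9 in wild-type non-myocytes. In PLNR9C vehicle groups it was 8.85 against 7.41. Those 2 groups overlapped (6.66 to 11.9 and 6.43 to 9.20 RPKM), so their order is not separated from the spread. In PLNR9C given JQ1 the means were 5.73 in cardiomyocytes and 7.38 in non-myocytes. By edgeR's quasi-likelihood test on the counts with Benjamini-Hochberg adjustment over all genes tested, all 9 differed between cardiomyocytes and non-myocytes, where 89.4% of all genes passed the adjusted p threshold of 0.05, and 7 of the 9 were lower in cardiomyocytes, as were 47.5% of all genes. The log2 fold changes, cardiomyocytes over non-myocytes, lay between -2.11 (Pdgfrb) and -0.45 (Cspg4) for those 7, and were 1.10 ± 0.064 for Abcc9 and 0.95 ± 0.11 for Acta2 (SE), against a median of -0.12 over all genes. TMM scaling, which sets the bulk of genes level between libraries, matters here: with library totals in its place, the median of all genes shifted by -0.83 log2 units, Abcc9 was at 0.27 and Acta2 at 0.11 (adjusted p = 0.31), and of these 2 Abcc9 alone was still past the threshold.

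**Figure D1:**
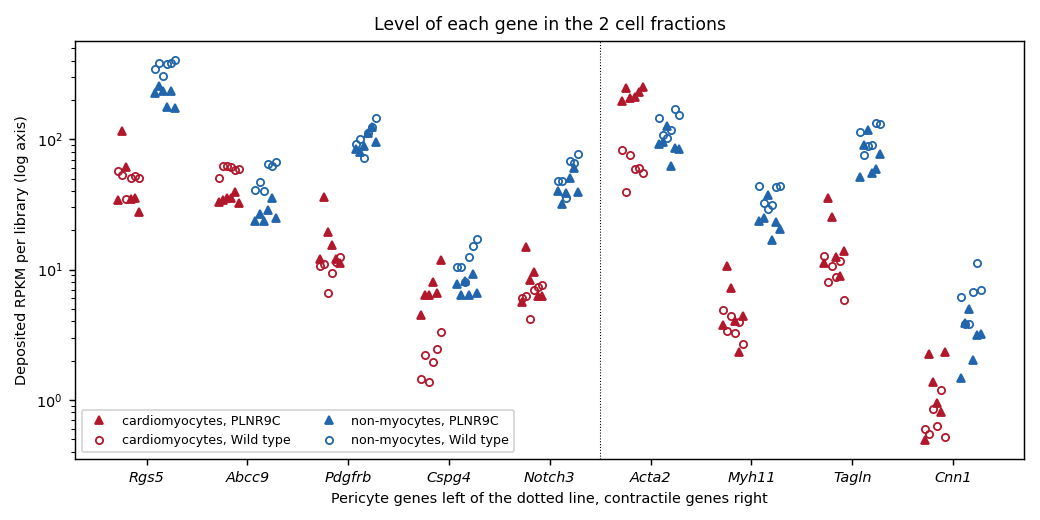
Deposited RPKM (log axis) of the 9 genes in each cardiomyocyte and non-myocyte library at 16 weeks, 12 libraries per fraction; filled triangles are PLNR9C and open circles wild type, with both treatments drawn alike. Acta2 in PLNR9C cardiomyocytes stands above Acta2 in PLNR9C non-myocytes, whereas Pdgfrb, Notch3, Myh11 and Tagln lie lower in cardiomyocytes, at ratios of means between 0.136 and 0.152.

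The order of the 9 genes by level changed with genotype. In 20-week PLNR9C vehicle ventricles Acta2 was first at 158 ± 37.0 RPKM, followed by Rgs5 at 84.6 ± 6.51 and Abcc9 at 38.3 ± 1.94 (SD, n = 3). In 20-week wild-type vehicle ventricles Rgs5 was first at 116 ± 13.8 RPKM, then Abcc9 at 86.3 ± 6.67 and Acta2 at 52.3 ± 16.0. Pdgfrb (27.2 ± 3.60 in PLNR9C, 26.2 ± 2.74 in wild type) and Notch3 (17.99 ± 1.43 and 18.8 ± 1.93) kept the fourth and the fifth place in both. Cnn1 was last in all 16 groups. The ranges of Notch3 and Tagln, and those of Cspg4 and Myh11, overlapped in the PLNR9C vehicle ventricles, so the order within each of these pairs is not separated from the spread.

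At 8 weeks, before the stage labelled DCM, the genotype differences that passed in vehicle-treated ventricle were small, and some contractile genes had larger estimates without passing. In the fit of all 4 groups, Abcc9 and Rgs5 fell and no contractile gene passed the test. Thus 2 of the 9 genes passed where 14.4% of all genes did. With only the 2 compared groups fitted, 5 of the 9 passed, so this count depends on the fit. Abcc9 read 582, 573 and 620.2 CPM in PLNR9C vehicle ventricles, against 734, 742 and 724 CPM in wild-type vehicle ventricles. The groups did not overlap (log2 fold change -0.31 ± 0.069 (SE), adjusted p = 0.0047). With library totals in place of TMM scaling, which shifts the median of all genes by 0.12 log2 units at 8 weeks and by 0.26 at 20 weeks, the adjusted p of Abcc9 at 8 weeks was 0.053. Rgs5 read 179, 198 and 209.7 CPM in PLNR9C and 232, 221 and 232 CPM in wild type (log2 fold change -0.23 ± 0.074 (SE), adjusted p = 0.047), and this was past the threshold under 6 of 12 other settings, 6 other fits and 6 that each left out 1 library. It missed the threshold without PLNR9C vehicle replicate 1 (adjusted p = 0.22), replicate 2 (0.091), wild-type vehicle replicate 1 (0.14), replicate 2 (0.067), replicate 3 (0.12) or TMM scaling (0.33). Acta2 read 117, 184 and 145 CPM in PLNR9C and 76.0, 107 and 86.1 CPM in wild type. The PLNR9C values were all above the wild-type values, with a log2 fold change of 0.73 ± 0.38 (SE), but the adjusted p was 0.27. Tagln (15.1 to 19.1 CPM in PLNR9C, 21.4 to 29.8 in wild type, adjusted p = 0.17) and Cspg4 (58.7 to 61.7 in PLNR9C, 49.9 to 53.6 in wild type, adjusted p = 0.085) were also separated without passing. How many of all genes were separated in this way was not counted. Separation of groups is therefore only a description, here and in the results that follow. Without TMM scaling Cspg4 passed (log2 fold change 0.34, adjusted p = 0.014) and was then the only member called. Pdgfrb had a log2 fold change of -0.057 and Notch3 of -0.11.

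At 20 weeks 6 of the 9 genes passed, in both directions. In PLNR9C vehicle ventricles Abcc9, Rgs5 and Notch3 fell, while Acta2, Tagln and, of the pericyte genes, Cspg4 rose; Pdgfrb, Myh11 and Cnn1 did not pass the test. Thus 3 of 9 fell and 3 of 9 rose, where 44.7% of all genes passed, 21.4% falling and 23.3% rising. Without TMM scaling 1 fell (Abcc9) and 4 rose (Cspg4, Acta2, Tagln and Myh11). The median log2 fold change was 0.63 over the 4 contractile genes and -0.32 over the 5 pericyte genes, against 0.0097 over all genes.

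Among the pericyte genes at 20 weeks, Abcc9 moved most. It read 262, 287 and 301 CPM in PLNR9C vehicle ventricles and 771, 819 and 699.9 CPM in wild-type vehicle ventricles, 0.371 times the wild-type level (log2 fold change -1.43 ± 0.10 (SE), adjusted p = 4.1e-09). Rgs5 read 125, 134 and 149 CPM in PLNR9C and 204, 251 and 213 CPM in wild type (log2 fold change -0.71 ± 0.19 (SE), adjusted p = 0.013). No PLNR9C library reached the lowest wild-type library for either gene. Without wild-type vehicle replicate 2, the adjusted p of Rgs5 was 0.053, and without TMM scaling it was 0.071. Notch3 read 127, 118 and 135 CPM in PLNR9C and 142, 169 and 165 CPM in wild type (log2 fold change -0.32 ± 0.079 (SE), adjusted p = 0.0025), a call that was not made without TMM scaling (log2 fold change -0.066, adjusted p = 0.53). The gene of its fellow mural receptor, Pdgfrb, read 129.5, 115 and 149 CPM in PLNR9C and 136, 152 and 164 CPM in wild type, groups that overlapped (adjusted p = 0.13). Cspg4 went the other way, with 92.0, 91.9 and 106 CPM in PLNR9C and 45.1, 49.1 and 61.8 CPM in wild type. Its PLNR9C libraries all lay above the highest wild-type library, at 1.86 times the wild-type level (log2 fold change 0.90 ± 0.12 (SE), adjusted p = 1.2e-05).

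Among the contractile genes at 20 weeks, Acta2 read 201, 231 and 319 CPM in PLNR9C vehicle ventricles and 81.7, 81.9 and 132 CPM in wild-type vehicle ventricles, 2.54 times the wild-type level (log2 fold change 1.34 ± 0.29 (SE), adjusted p = 0.0048). Tagln read 24.6, 23.7 and 16.8 CPM in PLNR9C and 13.7, 9.82 and 14.8 CPM in wild type (log2 fold change 0.77 ± 0.16 (SE), adjusted p = 0.00089). In both genes every PLNR9C library was above every wild-type library. Myh11, the contractile gene most restricted to smooth muscle, read 46.9, 65.5 and 38.5 CPM in PLNR9C and 37.5, 40.7 and 48.4 CPM in wild type, and these overlapped (log2 fold change 0.26, adjusted p = 0.24). Without TMM scaling its log2 fold change was 0.51 with an adjusted p of 0.021. Cnn1 had 1.26 to 2.80 CPM in PLNR9C and 0.889 to 2.03 CPM in wild type, which did not pass (adjusted p = 0.26), at 6 to 61 reads per library. The fibroblast markers moved in the same hearts: 8 of 8 rose in PLNR9C, and their sum was 5212 to 6300 CPM against 2253 to 2349 CPM in wild type. The endothelial markers summed to 1272 to 1471 CPM in PLNR9C against 1471 to 1865 CPM, with 7 of 11 lower and 1 higher. Of all genes, 23.3% rose and 21.4% fell in this comparison. The part of these cells in the members' values was not tested, and in whole tissue fewer cells of a type and less RNA per cell cannot be told apart.

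**Figure D2:**
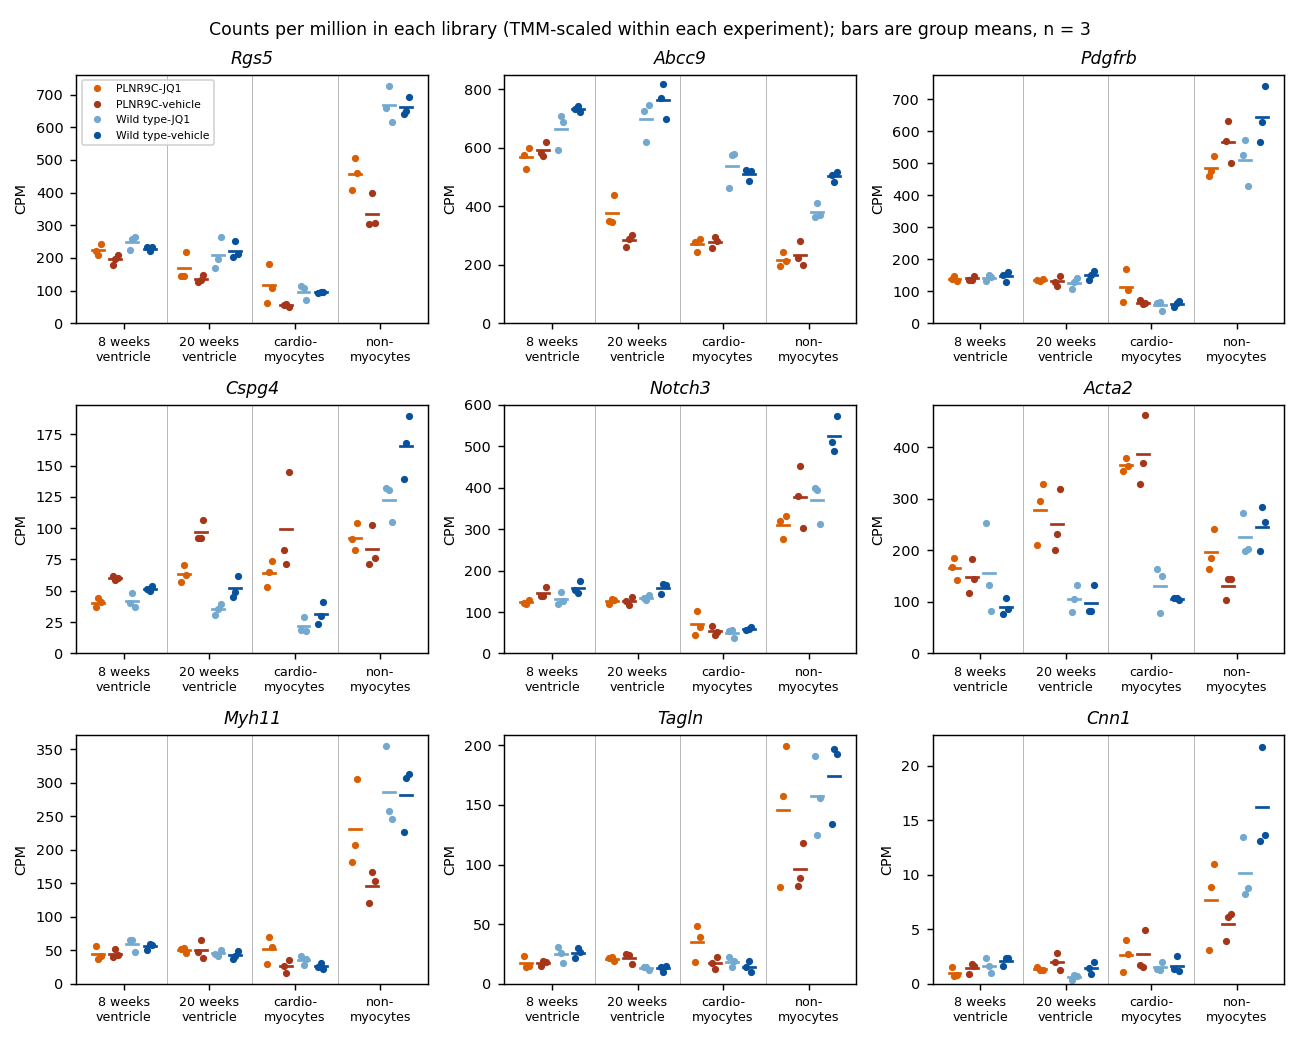
CPM of each of the 9 genes in all 48 libraries (TMM-scaled within each experiment), with 1 point per library and bars at group means (n = 3); in each experiment the groups run from PLNR9C JQ1 and PLNR9C vehicle to wild-type JQ1 and wild-type vehicle. At 20 weeks Abcc9 lies at 262 to 301 CPM in PLNR9C vehicle and 699.9 to 819 CPM in wild-type vehicle, and Acta2 at 201 to 319 and 81.7 to 132 CPM.

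The genotype difference itself changed between 8 and 20 weeks for 3 of the 9 genes, where 15.5% of all genes passed this test of the difference between ages. For Abcc9 the log2 fold change at 20 weeks was lower than that at 8 weeks (difference -1.11 ± 0.13 (SE) on the log2 scale, adjusted p = 4.6e-07). It was higher at 20 weeks for Cspg4 (difference 0.68 ± 0.15 (SE) on the log2 scale, adjusted p = 0.0028) and for Tagln (difference 1.35 ± 0.31 (SE) on the log2 scale, adjusted p = 0.0049), whose estimate was -0.58 at 8 weeks and 0.77 at 20 weeks. Mean Tagln CPM was 26.0 at 8 weeks and 12.8 at 20 weeks in wild-type vehicle ventricles, and 17.5 and 21.7 in PLNR9C vehicle ventricles. These means were scaled within each age and are not on one scale. For Acta2 the difference between ages was 0.62 ± 0.48 (SE) with an adjusted p of 0.45. The ages came from separate mice and separate tables. A scaling difference common to all libraries of a table cancels in this contrast.

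In cardiomyocytes at 16 weeks, Acta2 and Cspg4 rose in PLNR9C and Abcc9 fell, 3 of 9 genes where 26.1% of all genes passed. Acta2 read 329, 369 and 463 CPM in PLNR9C vehicle cardiomyocytes and 107, 108 and 103 CPM in wild-type vehicle cardiomyocytes, 3.65 times the wild-type level (log2 fold change 1.87 ± 0.22 (SE), adjusted p = 0.0001). Cspg4 read 82.5, 71.1 and 145 CPM in PLNR9C and 23.7, 29.5 and 41.4 CPM in wild type, 3.16 times the wild-type level (log2 fold change 1.66 ± 0.30 (SE), adjusted p = 0.002). Neither pair of groups overlapped. Abcc9 read 256, 294 and 279.7 CPM in PLNR9C and 523, 487 and 519 CPM in wild type (log2 fold change -0.88 ± 0.12 (SE), adjusted p = 0.00027). Without PLNR9C vehicle replicate 3 the log2 fold changes were still past the threshold for Acta2 (1.72, adjusted p = 0.00042), Cspg4 (1.28, adjusted p = 0.0047) and Abcc9 (-0.89, adjusted p = 0.0015), as they were without wild-type vehicle replicate 3 (1.83, 1.88 and -0.89). Cnn1 was at 0.69 (adjusted p = 0.37) with all libraries and at -0.055 without PLNR9C vehicle replicate 3. Rgs5 was lower in each PLNR9C library, at 54.7, 57.6 and 51.1 CPM against 93.6, 96.1 and 95.9 CPM in wild type, with an adjusted p of 0.073. For the genes with the lowest cardiomyocyte to non-myocyte ratios, the log2 fold changes in cardiomyocytes were 0.071 (Pdgfrb), -0.14 (Notch3), -0.0099 (Myh11) and 0.30 (Tagln), none past the threshold. Markers of other cells differed between these libraries: the 8 fibroblast markers summed to 1421 to 1931 CPM in PLNR9C vehicle cardiomyocytes against 431 to 550 CPM in wild type, with 7 of 8 past the test, and the 11 endothelial markers to 541 to 601 against 743 to 924 CPM. In PLNR9C vehicle non-myocytes the fibroblast markers summed to 26266 to 28827 CPM, Acta2 read 104 to 144 CPM and Cspg4 71.6 to 103 CPM. These values were scaled within the non-myocyte libraries and are not on one scale with those of cardiomyocytes. The part of other cells in the rise of Acta2 and Cspg4 in cardiomyocytes was not tested.

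The actin genes of striated muscle set the Acta2 result beside its paralogs. Acta1, the skeletal actin gene, rose in PLNR9C vehicle cardiomyocytes (log2 fold change 1.82 ± 0.22 (SE), adjusted p = 0.00012) and in 20-week PLNR9C vehicle ventricles (log2 fold change 2.24 ± 0.23 (SE), adjusted p = 2.8e-05), whereas Actc1, the cardiac actin gene, had log2 fold changes of 0.31 and -0.048 with adjusted p of 0.23 and 0.67. Of the 50-base windows of the longest Acta2 transcript, 0.352% also occur in other genes (the closest are Actg1 and its pseudogenes), so few reads of this length could be shared. SRF binds the CArG box, and the sites below are shown because the promoters of muscle actin genes are known to carry it. In the RefSeq promoter windows of GRCm38.p6 (250 bases before to 50 after the annotated start), both strands were searched for the CArG box and for a CArG-like box, which allows 1 C or G among the 6 central bases. The boxes are in capitals, 5′ to 3′ on the gene's strand, which is the minus strand for all 3 genes. The windows came with the table for 6 of the 9 genes: Rgs5, Abcc9, Cspg4, Notch3, Acta2 and Cnn1.

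Acta2, CArG-like box, -84 from the start, chr19:34255441-34255464: ctgaggtCCCTATATGGttgtgtt
Acta2, CArG-like box, -34 from the start, chr19:34255391-34255414: ctttgctCCTTGTTTGGgaagcga
Acta1, CArG box, -73 from the start, chr8:123894832-123894855: ccgacacCCAAATATGGcttggga
Actc1, CArG box, -47 from the start, chr2:114052906-114052929: aaggcgaCCAAATAAGGcaaggtg

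Acta2 held 2 CArG-like boxes and no strict CArG box, while Acta1 and Actc1 held a strict box each at the sites shown. Under the looser rule, which a strict box also meets, the Acta1 window held 3 boxes and the Actc1 window 4. For these paralogs only the strict box is shown. None of the other 5 members with a window held either form. Of all 32851 windows, 1.63% held a strict box, 9.98% held at least 1 CArG-like box and 0.822% held at least 2. Both Acta2 boxes lie within what GENCODE M21 annotates as the first exon of an Acta2 transcript (chr19:34255290-34255590), and within RefSeq's own gene span, so the start used for this window is not the outermost one annotated. A match is a description of the letters in these windows and is not a measurement of binding. The looser form of the box was chosen after the strict form had been searched.

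In non-myocytes at 16 weeks both kinds of gene fell together in PLNR9C. Of the 9 genes 7 fell (Rgs5, Abcc9, Cspg4, Notch3, Acta2, Myh11 and Cnn1) and none rose, where 18.6% of all genes passed and 8.32% fell. The median log2 fold change was -0.98 over the 5 pericyte genes and -0.93 over the 4 contractile genes, against -0.011 over all genes. Rgs5 read 303, 397 and 306 CPM in PLNR9C vehicle non-myocytes and 639.7, 650.1 and 692 CPM in wild-type vehicle non-myocytes, 0.508 times the wild-type level (log2 fold change -0.98 ± 0.13 (SE), adjusted p = 0.00015). Abcc9 read 223, 281 and 200.3 CPM in PLNR9C and 507, 483 and 518 CPM in wild type (log2 fold change -1.10 ± 0.12 (SE), adjusted p = 6.5e-05). Cspg4 read 71.6, 103 and 76.0 CPM in PLNR9C and 139, 168 and 189.9 CPM in wild type (log2 fold change -0.99 ± 0.15 (SE), adjusted p = 0.00076). For these 3 genes the PLNR9C libraries all lay below the wild-type libraries. Notch3 read 379, 451 and 303 CPM in PLNR9C and 509.5, 489.6 and 573 CPM in wild type (log2 fold change -0.47 ± 0.14 (SE), adjusted p = 0.035), a call that held under 6 of 12 other settings and was missed without PLNR9C vehicle replicate 1 (adjusted p = 0.1), replicate 3 (0.15), wild-type vehicle replicate 1 (0.072), replicate 2 (0.066) or replicate 3 (0.14), or with only the 2 groups fitted (0.07).

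Of the contractile genes in non-myocytes, Acta2 read 104, 144 and 144 CPM in PLNR9C and 198, 284 and 255 CPM in wild type (log2 fold change -0.91 ± 0.19 (SE), adjusted p = 0.0056). Myh11 read 120.5, 166 and 153 CPM in PLNR9C and 227, 307 and 313 CPM in wild type (log2 fold change -0.95 ± 0.21 (SE), adjusted p = 0.0095). Cnn1 read 3.92, 6.09 and 6.43 CPM in PLNR9C and 13.1, 21.8 and 13.6 CPM in wild type (log2 fold change -1.56 ± 0.39 (SE), adjusted p = 0.017). It missed the threshold without PLNR9C vehicle replicate 1 (adjusted p = 0.077) or wild-type vehicle replicate 2 (0.066). Tagln, at 82.3, 89.0 and 118 CPM in PLNR9C and 134, 197 and 193 CPM in wild type, did not overlap between the groups either, but its adjusted p was 0.079. Pdgfrb was the exception among the 9, at 568, 633 and 502 CPM in PLNR9C and 567, 628 and 742 CPM in wild type, with overlapping groups (log2 fold change -0.18 ± 0.14 (SE), adjusted p = 0.39). The endothelial markers were lower in the same libraries, 8 of 11 past the test, with sums of 3485 to 4538 CPM in PLNR9C against 5898 to 7051 CPM in wild type. The fibroblast markers summed to 26266 to 28827 CPM against 19594 to 20475 CPM, with 3 of 8 higher, and macrophage markers were higher in 7 of 7. Of all 15347 genes tested in this comparison, 1584 rose and 1277 fell. How far a changed mixture of cells accounts for the fall was not tested.

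**Figure D3:**
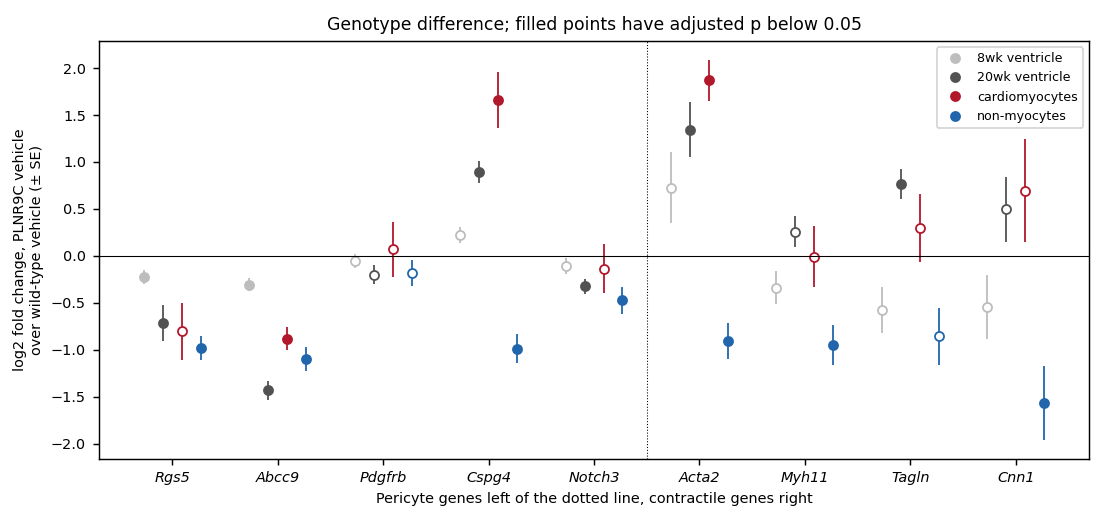
log2 fold change of PLNR9C vehicle over wild-type vehicle (± SE) for the 9 genes in the 4 experiments, with points filled where the adjusted p is below 0.05. Acta2 and Cspg4 lie above 0 in 20-week ventricles and cardiomyocytes and below 0 in non-myocytes (1.34, 1.87 and -0.91 for Acta2), while Abcc9 is below 0 in all 4 experiments.

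Acta2 and Cspg4 thus had opposite signs in the 2 fractions, and the difference of the genotype effects was tested directly, in a contrast added after the fractions had been seen apart. The effect in cardiomyocytes exceeded that in non-myocytes for Acta2 (difference 2.73 ± 0.31 (SE) on the log2 scale, adjusted p = 1.1e-05) and for Cspg4 (difference 2.60 ± 0.35 (SE) on the log2 scale, adjusted p = 9.9e-05), 2 of the 9 genes where 8.33% of all genes passed. For Cnn1 the difference was 2.20 ± 0.71 (SE), with an adjusted p of 0.058. Libraries of the same group and number deviated together in the 2 fractions, and with that pair as a block, a fit added after the data had been seen, 4 of 9 passed: besides Acta2 (2.71, adjusted p = 2.5e-06) and Cspg4 (2.57, adjusted p = 3.7e-05), also Tagln (1.10, adjusted p = 0.007, against 0.18 without the block) and Cnn1 (2.14, adjusted p = 0.0029). Without PLNR9C vehicle cardiomyocyte replicate 3 the unblocked difference was 1.45 for Cnn1, and it still passed for Acta2 (2.58, adjusted p = 4.0e-05) and Cspg4 (2.22, adjusted p = 0.00016). Abcc9, which fell in both fractions, differed between them by 0.17 (adjusted p = 0.65). Of the 16 other smooth muscle genes, Myl9, the regulatory myosin light chain of smooth muscle (difference 1.88 ± 0.42 (SE) on the log2 scale, adjusted p = 0.0072), and Actg2, the enteric smooth muscle actin (difference 2.19 ± 0.47 (SE) on the log2 scale, adjusted p = 0.0052), showed the same pattern. None of the 16 other pericyte genes passed.

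Wider lists gave the members a setting. Of 16 other pericyte genes, none rose by genotype in vehicle-treated samples. At 8 weeks 4 of them fell and at 20 weeks 9; 3 fell among cardiomyocyte libraries and 13 among non-myocyte libraries. Of all genes tested, 6.5%, 21.4%, 11.8% and 8.32% fell in these 4 comparisons. The median log2 fold changes of this list were -0.15, -0.46, -0.50 and -0.84 in that order, against 0.0077, 0.0097, 0.0017 and -0.011 over all genes. In non-myocytes the smallest p belonged to Vtn, the matrix protein vitronectin (log2 fold change -1.50 ± 0.15 (SE), adjusted p = 2.3e-05), Higd1b (log2 fold change -1.45 ± 0.17 (SE), adjusted p = 9.0e-05), Ndufa4l2 (log2 fold change -0.97 ± 0.14 (SE), adjusted p = 0.00045) and Kcnj8 (log2 fold change -1.19 ± 0.18 (SE), adjusted p = 0.00066). At 20 weeks they belonged to Kcnj8 (-0.88 ± 0.13, adjusted p = 2.0e-05), the receptor gene P2ry14 (-1.29 ± 0.21, adjusted p = 5.9e-05), Art3 (-1.43 ± 0.21, adjusted p = 0.00033) and Rgs4, a relative of Rgs5 (-0.82 ± 0.16, adjusted p = 0.00063). Of 16 other smooth muscle genes, 12 fell and none rose in non-myocytes, led by the tropomyosin gene Tpm2 (-1.09 ± 0.13, adjusted p = 0.00011) and the myosin light chain kinase gene Mylk (-0.93 ± 0.14, adjusted p = 0.0005). At 20 weeks 4 of these 16 passed, where 44.7% of all genes did. Myl9 rose (1.41 ± 0.13, adjusted p = 7.3e-08), and Smtn (-0.69 ± 0.079, adjusted p = 1.3e-06), Ppp1r12b (-0.27 ± 0.073, adjusted p = 0.0056) and Nrip2 (-0.67 ± 0.23, adjusted p = 0.023) fell. In cardiomyocytes, where 26.1% of all genes passed, 15 of the 16 were tested. Myl9 (1.07 ± 0.34, adjusted p = 0.036) and Actg2 (0.70 ± 0.23, adjusted p = 0.039) rose while Smtn, which encodes smoothelin, fell (-0.46 ± 0.13, adjusted p = 0.018).

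**Figure D4:**
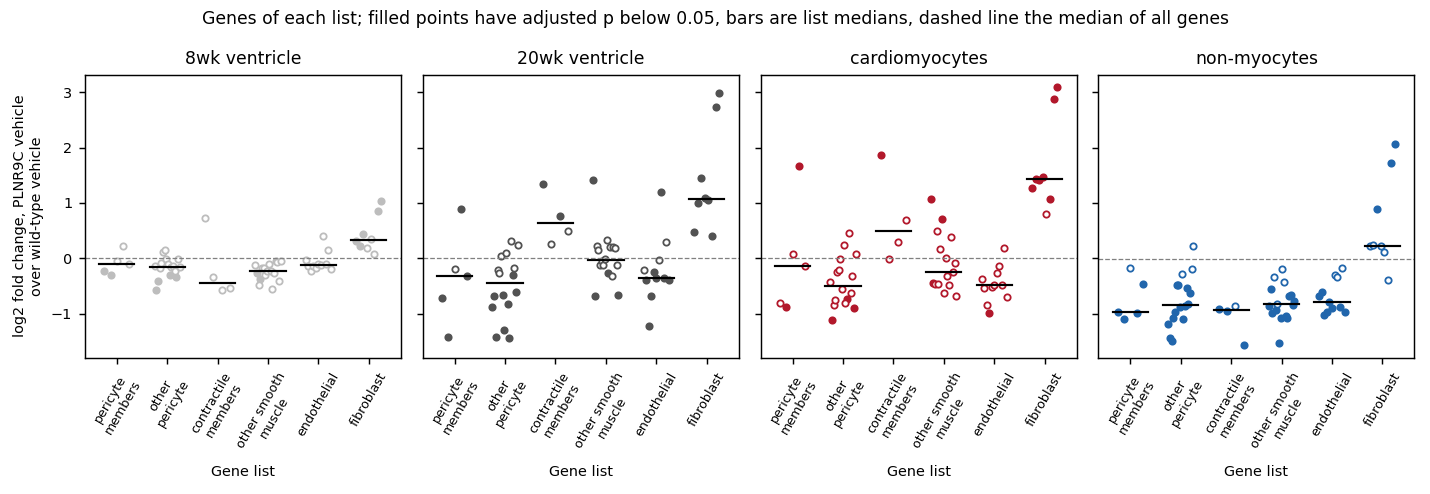
log2 fold change of PLNR9C vehicle over wild-type vehicle for every tested gene of 6 lists in the 4 experiments; each point is a gene, filled where the adjusted p is below 0.05, solid bars are list medians and the dashed line is the median of all genes. In non-myocytes the medians of the pericyte and contractile members are -0.98 and -0.93, and at 20 weeks they are -0.32 and 0.63.

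The partners of the members were read from lists of their pathways. Of the 3 other subunits of the ATP-sensitive channel, Kcnj11, which encodes the cardiomyocyte pore, fell with Abcc9 at 8 weeks (log2 fold change -0.36 ± 0.069 (SE), adjusted p = 0.0015), at 20 weeks (-0.81 ± 0.081, adjusted p = 2.4e-07) and in cardiomyocytes (-0.89 ± 0.13, adjusted p = 0.00043). Kcnj8, the pore of mural cells, fell at 20 weeks and in non-myocytes as given above, and Abcc8, which encodes SUR1, fell at 20 weeks (-0.33 ± 0.088, adjusted p = 0.0055). Of 5 PDGF ligands and the partner receptor, Pdgfc rose at 20 weeks (3.12 ± 0.27, adjusted p = 7.5e-08), in cardiomyocytes (2.10 ± 0.49, adjusted p = 0.0074) and in non-myocytes (1.78 ± 0.18, adjusted p = 2.7e-05). Pdgfb, the endothelial ligand of the receptor encoded by Pdgfrb, fell in non-myocytes (-0.69 ± 0.17, adjusted p = 0.015), where Pdgfd also fell (-0.87 ± 0.25, adjusted p = 0.034). Of 13 Notch ligands, receptors and targets, none passed at 8 weeks, where 13 were tested; 6 fell at 20 weeks and 1 fell in cardiomyocytes, and in non-myocytes 7 fell and 2 rose. The shares of all genes that passed in either direction there were 14.4%, 44.7%, 26.1% and 18.6%, in the same order. Heyl, a Notch target of mural cells, fell at 20 weeks (-0.40 ± 0.10, adjusted p = 0.0032) and in non-myocytes (-0.90 ± 0.12, adjusted p = 0.00022), as did Notch1 (-0.44 ± 0.086, adjusted p = 0.00038 and -0.77 ± 0.13, adjusted p = 0.00097). Of 5 SRF and myocardin regulators, Myocd (-0.85 ± 0.22, adjusted p = 0.0096) and Mkl2 (-0.34 ± 0.11, adjusted p = 0.022) fell at 20 weeks and Mkl1 rose (0.28 ± 0.083, adjusted p = 0.0096), while Srf was at 0.23 (adjusted p = 0.069). None of the 5 passed in cardiomyocytes, and Klf4, a repressor of smooth muscle genes, fell in non-myocytes (-0.72 ± 0.16, adjusted p = 0.0063).

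Cspg4 fell with JQ1 in ventricles of both genotypes and ages. It passed in 5 of the 8 comparisons of JQ1 with vehicle, Notch3 in 4, and every other member in fewer. At 8 weeks Cspg4 read 37.1, 44.0 and 40.8 CPM in PLNR9C ventricles given JQ1 and 61.7, 58.7 and 60.4 CPM in those given vehicle (log2 fold change -0.57 ± 0.085 (SE), adjusted p = 4.8e-05). In wild type at 8 weeks it read 40.1, 48.1 and 37.1 CPM with JQ1 and 51.4, 49.9 and 53.6 CPM with vehicle (log2 fold change -0.31 ± 0.085 (SE), adjusted p = 0.01). That call was lost without wild-type JQ1 replicate 3 (log2 fold change -0.23, adjusted p = 0.066). At 20 weeks Cspg4 read 57.0, 70.7 and 63.0 CPM in PLNR9C with JQ1 and 92.0, 91.9 and 106 CPM with vehicle (log2 fold change -0.61 ± 0.12 (SE), adjusted p = 0.001). Wild-type ventricles at 20 weeks read 31.1, 35.3 and 39.4 CPM with JQ1 and 45.1, 49.1 and 61.8 CPM with vehicle (log2 fold change -0.56 ± 0.12 (SE), adjusted p = 0.0029). The JQ1 libraries lay below the vehicle libraries in all 4 of these comparisons. In cardiomyocytes the log2 fold change was -0.64 in PLNR9C (adjusted p = 0.18) and -0.51 in wild type (0.39). With 1 library left out these ranged over -0.81 to -0.26 and -0.76 to -0.26; the values nearest 0 came without PLNR9C vehicle replicate 3 and without wild-type vehicle replicate 3. In non-myocytes it was 0.15 in PLNR9C (0.49) and -0.44 ± 0.15 (SE) in wild type (0.038), the last of which held under 7 of 12 other settings and was missed without wild-type JQ1 replicate 1 (adjusted p = 0.053), replicate 2 (0.057), replicate 3 (0.15), wild-type vehicle replicate 2 (0.094) or replicate 3 (0.15).

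At 8 weeks 3 of 9 genes passed in PLNR9C (33.1% of all genes) and 2 of 9 in wild type (29.8%). Beside Cspg4 these were Notch3, which fell in PLNR9C (log2 fold change -0.24 ± 0.085 (SE), adjusted p = 0.036) and in wild type (-0.26 ± 0.085, adjusted p = 0.028), and Rgs5, which rose in PLNR9C (0.20 ± 0.074, adjusted p = 0.043). These 3 calls held under 8, 8 and 7 of 12 other settings. Notch3 in PLNR9C missed the threshold without PLNR9C JQ1 replicate 1 (adjusted p = 0.088), replicate 2 (0.11), replicate 3 (0.053) or PLNR9C vehicle replicate 3 (0.17), and Notch3 in wild type, where the groups overlapped, without wild-type JQ1 replicate 1 (adjusted p = 0.12), replicate 3 (0.097) or wild-type vehicle replicate 3 (0.15), or with only the 2 groups fitted (0.053). Rgs5 missed it without PLNR9C JQ1 replicate 1 (adjusted p = 0.073), replicate 3 (0.2), PLNR9C vehicle replicate 1 (0.23), replicate 2 (0.071) or TMM scaling (0.34). At 20 weeks 2 of 9 passed in PLNR9C (31.9% of all genes) and 3 of 9 in wild type (27.2%). Abcc9 rose with JQ1 in PLNR9C, reading 350.1, 345 and 437 CPM with JQ1 and 262, 287 and 301 CPM with vehicle (log2 fold change 0.41 ± 0.10 (SE), adjusted p = 0.004), and stayed below the 699.9 to 819 CPM of wild-type vehicle ventricles. In wild type at 20 weeks Notch3 (-0.23 ± 0.079, adjusted p = 0.035) and Cnn1 (-1.23 ± 0.41, adjusted p = 0.032) fell with JQ1, and did so in 7 and 8 of 12 other settings. Notch3 missed the threshold without wild-type JQ1 replicate 1 (adjusted p = 0.091), replicate 2 (0.13), wild-type vehicle replicate 2 (0.15) or replicate 3 (0.13), or with only the 2 groups fitted (0.076), and Cnn1 without wild-type JQ1 replicate 1 (adjusted p = 0.12), wild-type vehicle replicate 1 (0.06) or replicate 3 (0.15), or with only the 2 groups fitted (0.06). Cnn1 rests there on 0.310 to 0.770 CPM with JQ1 and 0.889 to 2.03 CPM with vehicle. Acta2 in 20-week PLNR9C ventricles read 209.6, 296 and 328 CPM with JQ1 and 201, 231 and 319 CPM with vehicle, with a log2 fold change of 0.15 ± 0.28 (SE) and an adjusted p of 0.73. Myl9, which had risen there by genotype, fell with JQ1 (-0.98 ± 0.12, adjusted p = 1.7e-05), as did Acta1 (-0.79 ± 0.22, adjusted p = 0.022). In each experiment the genotype comparison and that of JQ1 in PLNR9C share the same PLNR9C vehicle libraries. Opposite signs of these 2 effects, for members and other genes alike, can therefore follow in part from those libraries.

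In cardiomyocytes 1 of 9 genes passed with JQ1 in PLNR9C (10.5% of all genes) and 0 of 9 in wild type by edgeR, where 3.63% of all genes passed and none of the 9 had an unadjusted p under 0.05. DESeq2 also called 0 of 9 there. Rgs5 read 62.1, 182 and 108 CPM in PLNR9C cardiomyocytes given JQ1 and 54.7, 57.6 and 51.1 CPM in those given vehicle (log2 fold change 1.11 ± 0.30 (SE), adjusted p = 0.041). Replicate 2, the library with the highest fibroblast marker sum, was also the highest for Rgs5; without it the log2 fold change was 0.64. The call held under 4 of 12 other settings and was missed without PLNR9C JQ1 replicate 2 (adjusted p = 0.14), replicate 3 (0.072), PLNR9C vehicle replicate 1 (0.093), replicate 2 (0.097), replicate 3 (0.098) or TMM scaling (0.071), or with no filter on low counts (0.087), or with only the 2 groups fitted (0.12). Acta2 read 353 to 379.8 CPM with JQ1 against 329 to 463 CPM with vehicle in PLNR9C cardiomyocytes (log2 fold change -0.083 ± 0.21, SE, adjusted p = 0.84; -0.11 without PLNR9C JQ1 replicate 2 and 0.065 without PLNR9C vehicle replicate 3), whereas its paralog Acta1 fell (-1.13 ± 0.22, adjusted p = 0.0091). In non-myocytes 3 of 9 rose in PLNR9C (36.2% of all genes passed): Acta2, with 164, 185 and 241 CPM with JQ1 and 104, 144 and 144 CPM with vehicle (log2 fold change 0.59 ± 0.19 (SE), adjusted p = 0.028), Myh11 (0.66 ± 0.21, adjusted p = 0.03) and Rgs5 (0.45 ± 0.13, adjusted p = 0.012). These held under 9, 7 and 8 of 12 other settings. Acta2 missed the threshold without PLNR9C JQ1 replicate 3 (adjusted p = 0.11), PLNR9C vehicle replicate 1 (0.11) or TMM scaling (0.082), Myh11 without PLNR9C JQ1 replicate 3 (adjusted p = 0.11), PLNR9C vehicle replicate 1 (0.11), replicate 3 (0.06) or TMM scaling (0.078), or with no filter on low counts (0.059), and Rgs5 without PLNR9C JQ1 replicate 2 (adjusted p = 0.058), PLNR9C vehicle replicate 1 (0.057), replicate 3 (0.053) or TMM scaling (0.086). In wild type 3 of 9 fell (38% of all genes passed): Abcc9 (-0.40 ± 0.12, adjusted p = 0.021), Notch3 (-0.51 ± 0.14, adjusted p = 0.014) and Cspg4, as given above, with Abcc9 and Notch3 past under 8 and 10 of 12 other settings. Abcc9 missed the threshold without wild-type JQ1 replicate 1 (adjusted p = 0.076), replicate 3 (0.069), wild-type vehicle replicate 1 (0.052) or replicate 3 (0.057), and Notch3 without wild-type JQ1 replicate 3 (adjusted p = 0.065) or wild-type vehicle replicate 3 (0.053). In those wild-type non-myocytes the 10 cardiomyocyte markers summed to 7188 to 9008 CPM with JQ1 against 2731 to 4209 CPM with vehicle; the part of this in the fall was not tested.

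**Figure D5:**
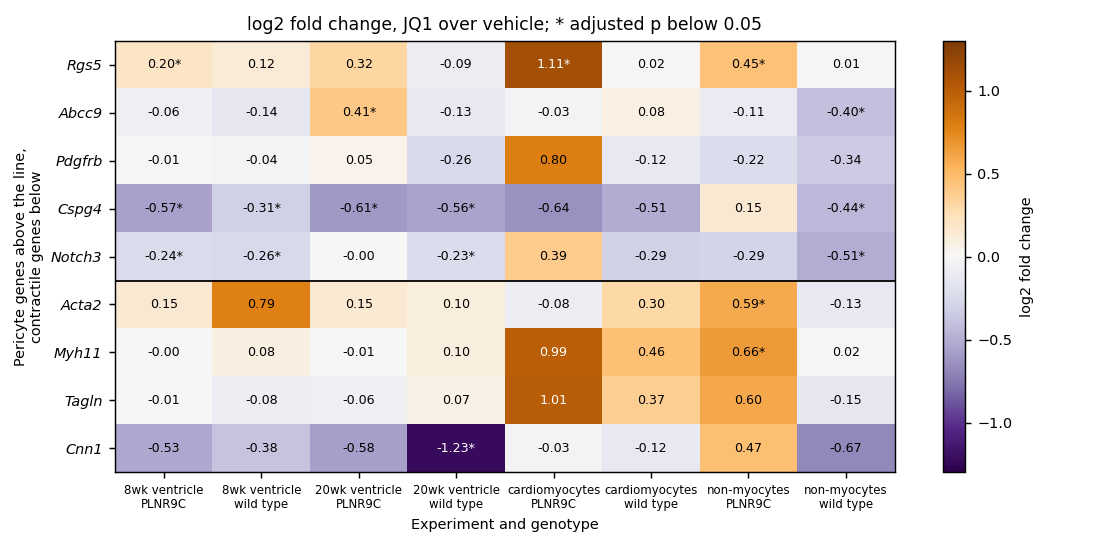
log2 fold change of JQ1 over vehicle for the 9 genes (rows, pericyte genes above the line) in the 4 experiments and both genotypes (columns), with stars where the adjusted p is below 0.05. The Cspg4 row is negative and starred in the 4 ventricle columns (-0.57, -0.31, -0.61 and -0.56).

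The JQ1 effect was not shown to differ between the genotypes for any member by the main test. The interaction called 0 of 9 genes by edgeR in each experiment, where 0.00645% of all genes passed at 8 weeks, 0.357% at 20 weeks and 0% in each fraction. At an unadjusted p under 0.05 there was 1 of 9 at each age, with 2 in cardiomyocytes and 3 in non-myocytes, and DESeq2 called 1 of the 9 at 20 weeks and none elsewhere. With no filter on low counts, edgeR also called 1 of the 9 in the 20-week interaction. The genotype difference among JQ1-treated samples was computed from other libraries than that among vehicle-treated ones. At 8 weeks 0 of 9 passed by edgeR (5.96% of all genes), 2 had an unadjusted p under 0.05 and DESeq2 called 1. At 20 weeks 5 of 9 passed (39.1% of all genes): Abcc9 was lower in PLNR9C JQ1 than in wild-type JQ1 ventricles (-0.89 ± 0.10, adjusted p = 1.7e-06), and Cspg4 (0.85 ± 0.12, adjusted p = 3.4e-05), Acta2 (1.39 ± 0.29, adjusted p = 0.0045), Tagln (0.64 ± 0.16, adjusted p = 0.0042) and Cnn1 (1.15 ± 0.40, adjusted p = 0.03) were higher. Cnn1 missed the threshold without PLNR9C JQ1 replicate 1 (adjusted p = 0.084) or wild-type JQ1 replicate 1 (0.13). In cardiomyocytes 4 of 9 passed (25.9% of all genes): Abcc9 was lower (-0.99 ± 0.12, adjusted p = 0.00021) and Cspg4 (1.54 ± 0.30, adjusted p = 0.004), Acta2 (1.48 ± 0.22, adjusted p = 0.0006) and Pdgfrb (0.99 ± 0.29, adjusted p = 0.029) were higher in PLNR9C. Without PLNR9C JQ1 replicate 2, the value for Pdgfrb was 0.60; it missed the threshold without PLNR9C JQ1 replicate 2 (adjusted p = 0.12), replicate 3 (0.051), wild-type JQ1 replicate 1 (0.054) or replicate 3 (0.1), or with no filter on low counts (0.062), or with only the 2 groups fitted (0.08), and its groups overlapped. Without PLNR9C JQ1 replicate 2, Abcc9 (-0.91, adjusted p = 0.0004), Cspg4 (1.54, adjusted p = 0.02) and Acta2 (1.48, adjusted p = 0.0033) were still past the threshold, as they were without wild-type JQ1 replicate 3 (-0.95, 1.39 and 1.58). In non-myocytes 2 of 9 passed (18.6% of all genes), with Rgs5 (-0.54 ± 0.13, adjusted p = 0.0082) and Abcc9 (-0.81 ± 0.12, adjusted p = 0.00057) lower in PLNR9C.

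Of the 16 other pericyte genes, P2ry14 and Ednra, the endothelin receptor gene, fell in the ventricles of both genotypes at both ages and in both non-myocyte comparisons. Their log2 fold changes in 20-week wild-type ventricles were -2.54 ± 0.24, adjusted p = 8.9e-07 and -1.09 ± 0.15, adjusted p = 0.00015. In 20-week PLNR9C ventricles they were -1.39 ± 0.24, adjusted p = 0.00039 and -0.86 ± 0.15, adjusted p = 0.00076. P2ry14 and Ednra are named as single genes and do not stand for their list, whose rises and falls with JQ1 are not counted here. Of the pericyte members, Cspg4 and Notch3 fell with JQ1 in several comparisons, whereas Rgs5 rose in some and Abcc9 went either way, as given above. Of the 16 other smooth muscle genes 7 fell and none rose in 20-week PLNR9C ventricles, and 6 fell and none rose in wild type, where 31.9% and 27.2% of all genes passed. Mustn1 (-0.98 ± 0.22, adjusted p = 0.0024 in PLNR9C, -1.02 ± 0.23, adjusted p = 0.0035 in wild type) and Aoc3 (-0.64 ± 0.13, adjusted p = 0.0011 and -0.88 ± 0.13, adjusted p = 0.00012) fell in both. Klf4 rose with JQ1 in 20-week PLNR9C (0.86 ± 0.11, adjusted p = 2.2e-05) and wild-type ventricles (0.82 ± 0.11, adjusted p = 4.2e-05), and Mkl2, a coactivator of SRF, fell (-0.57 ± 0.11, adjusted p = 0.0014 and -0.87 ± 0.11, adjusted p = 5.5e-05). Jag1, a ligand of Notch receptors, rose in the same hearts (0.76 ± 0.086, adjusted p = 6.6e-06 and 0.51 ± 0.087, adjusted p = 0.00034), as did Pdgfa (0.47 ± 0.084, adjusted p = 0.00041 and 0.73 ± 0.085, adjusted p = 8.4e-06).

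Set against each other in single libraries, the 4 contractile genes were nearer to the 5 pericyte genes in PLNR9C than in wild-type hearts at 20 weeks. The mean log2 CPM of the contractile genes minus that of the pericyte genes was -2.68 to -2.46 in PLNR9C JQ1 and -2.77 to -2.10 in PLNR9C vehicle ventricles, against -3.57 to -3.28 in wild-type JQ1 and -3.84 to -3.17 in wild-type vehicle ventricles. The 6 PLNR9C libraries did not overlap the 6 wild-type libraries. At 8 weeks the same quantity was -3.25 to -2.64 in PLNR9C JQ1, -3.34 to -2.77 in PLNR9C vehicle, -3.31 to -2.20 in wild-type JQ1 and -3.24 to -2.72 in wild-type vehicle ventricles, and the genotypes overlapped. In cardiomyocytes it was -2.07 to -1.32 in PLNR9C vehicle and -2.92 to -2.11 in wild-type vehicle libraries. With JQ1 it was -1.83 to -1.49 in PLNR9C and -2.66 to -1.56 in wild-type cardiomyocytes, which overlapped. In non-myocytes it was -2.48 to -1.86 in PLNR9C vehicle and -2.15 to -1.66 in wild-type vehicle libraries. With JQ1 it was -2.27 to -1.31 and -2.18 to -1.54 there, and the genotypes overlapped under both treatments. This is a description, with no test, since it averages chosen genes that differ in level.

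The 2 classes did not hold together as classes across the 16 groups. The profiles of the group means of log2 CPM, each centred within its experiment, were compared by their root mean square difference. The closest pairs were Pdgfrb with Notch3 (0.148), Myh11 with Tagln (0.174) and, across the classes, Rgs5 with Myh11 (0.251). The farthest pair was Abcc9 with Acta2 (0.962). Cspg4, named as a pericyte gene, lay closer to the contractile genes Cnn1 (0.365) and Acta2 (0.372) than to any other pericyte gene. Among 10364 genes outside the 9 with a mean of at least 10 CPM, Rgs5 was nearest to Cd300lg (0.0853), Plxna2 (0.0901) and Notch1 (0.0938), and Notch3 to Prkch (0.0729), Gimap1 (0.0763) and Sema6a (0.0818). Pdgfrb was nearest to Ets1 (0.0971), Rem1 and Osbpl7, and Abcc9 to Lpl (0.105), Acacb and Mmp15. Cspg4 had no neighbour so close, its nearest being Rras (0.196), Synm and Tspan9. Of the contractile genes, Acta2 was nearest to Tubb2a (0.176), Ccdc136 and Star, Myh11 to Ramp2 (0.133), Sox17 and Tpm2, Tagln to Csrp1 (0.152), N4bp3 and Ndn, and Cnn1 to Mamdc2 (0.224), Susd5 and Epb4.9. The 16 points of a profile share libraries and scaling within each experiment, and no test was made of these likenesses.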

How the data were processed

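Per the labels' protocols, TRIzol was used for the RNA and Nextera for the libraries. STAR 2.4.1b and the builds GRCm38 and mm10 are named in the submitters' processing notes, and the sources used here give no counting tool, strand setting or annotation. The deposited tables hold, for each gene and library, raw read counts and RPKM by the authors. The deposited RPKM values fit the counts with 1 length per gene (implied lengths differed by at most 0.0938% between libraries, over genes with at least 50 reads in each). RPKM entered no test and was used for levels between genes, cell fractions and groups.

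Each of the 4 experiments (12 libraries) was fitted on its own counts with edgeR 4.0.16 in R 4.3.3: filterByExpr by group, TMM scaling and the robust quasi-likelihood test, with Benjamini-Hochberg adjustment over all genes tested and a threshold of 0.05. SE is the absolute log2 fold change over the square root of F. Cell fractions and ages were compared in fits of 24 libraries. Replicate numbers paired the cell fractions, by the correlation of the deviations from group means: it was 0.181 to 0.375 in the 12 pairs of cardiomyocyte and non-myocyte libraries with the same group and number, and a median of -0.163 between different numbers. Deviations within a group cancel out, so the negative median largely follows from the positive values and is no separate evidence. The alternatives were DESeq2 1.42.0, RLE scaling, no scaling (added after the data had been seen), no filter, a replicate block, a block of those pairs (also added), only the 2 groups compared, and leaving out each library. The scripts were tested on simulated data. CPM is TMM-scaled within an experiment.

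The 9 genes and the gene lists were chosen with earlier results of these data known, and no list is independent evidence. The difference of genotype effects between fractions and the CArG-like box were added after the data had been seen. Of each list, the text names up to 4 genes past the threshold, by smallest p, with paralogs and pathway partners given for comparison; for each member, the 3 genes with the nearest profile are named. Of 8 macrophage markers, 7 were found. Promoter sequence and gene IDs are RefSeq's, of GRCm38.p6. The p-values rest on the spread between libraries, estimated from all groups of a fit (3 libraries each) and partly from other genes. The precision of a level depends on the spread between libraries as well as on the reads per library given with the results.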

Additional observations from a re-analysis of the deposited data

Results flagged for a closer look

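Between the cell fractions, the genotype difference in vehicle-treated samples was 2.73 log2 units higher in cardiomyocytes than in non-myocytes for Acta2 and 2.60 higher for Cspg4, both past a test of that difference with edgeR's quasi-likelihood test.

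Between the ages, the genotype difference in vehicle-treated ventricle was -1.11 log2 units at 20 weeks relative to 8 weeks for Abcc9, 0.68 for Cspg4 and 1.35 for Tagln, each past a test of the difference between ages. No sample of the 9 genes was compared with its own group for outlying values, since groups of 3 are too small for that.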

How the results depend on the processing

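Of 207 member values, 60 were past the threshold. None of these changed sign under any alternative run, 38 stayed past it under every alternative, 15 lost the call under another fit and 19 when 1 library was left out. RLE scaling lost and gained no call. Library totals in place of TMM scaling, an alternative chosen after seeing the data, lost 10 and gained 10, DESeq2 lost 0 and gained 9, no filter lost 3 and gained 2, and fitting 2 groups only lost 6 and gained 6. The genotype calls for Acta2 and Cspg4 held under every alternative run, and those for Abcc9 did except at 8 weeks without scaling. Within an experiment, replicate numbers did not pair the libraries: median correlations of same-numbered deviations lay between -0.0068 and 0.012, and 1 of 18 pairs at 8 weeks, 2 at 20 weeks, 3 for cardiomyocytes and 5 for non-myocytes exceeded 0.1. With the replicate block 0 member calls were lost, 2 were gained, and 92 genes instead of 57 passed the 20-week interaction. The block of paired cell fractions gave 4 members instead of 2 for the difference of genotype effects, with Tagln (1.10) and Cnn1 (2.14) gained, and changed no other member call. Depth limits Cnn1 most, at 6 to 61 reads per library at 20 weeks.

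Without scaling, members past the threshold numbered 1 instead of 2 for genotype at 8 weeks, 0 instead of 1 for JQ1 in PLNR9C cardiomyocytes and 1 instead of 3 for JQ1 in PLNR9C non-myocytes. Calls it gained, beside Cspg4 at 8 weeks and Myh11 at 20 weeks given in the results, were Abcc9 (-0.20) with JQ1 in wild type at 8 weeks, Pdgfrb (-0.36) with JQ1 in wild type at 20 weeks, Pdgfrb (0.39) and Myh11 (0.44) for genotype under JQ1 at 20 weeks, Tagln (1.19) for genotype under JQ1 in cardiomyocytes, Cnn1 (2.38) for the difference between fractions, Notch3 (-0.44) with JQ1 in PLNR9C non-myocytes and Pdgfrb (-0.52) with JQ1 in wild-type non-myocytes.

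With only 2 groups fitted, the count of members past the threshold was 1 instead of 3 for JQ1 in wild type at 20 weeks, 1 instead of 2 for JQ1 in wild type at 8 weeks, 5 instead of 2 for genotype at 8 weeks and 0 instead of 1 for JQ1 in PLNR9C cardiomyocytes. The count of genes was then 22 instead of 1480 for JQ1 in PLNR9C cardiomyocytes and 1183 instead of 513 for JQ1 in wild-type cardiomyocytes.

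With DESeq2, members numbered 4 instead of 1 for JQ1 in PLNR9C cardiomyocytes, 1 instead of 0 for the 20-week interaction and 1 instead of 0 for genotype under JQ1 at 8 weeks. Genes numbered 213 instead of 57 for the interaction at 20 weeks, 11 instead of 1 at 8 weeks, 4 instead of 0 in cardiomyocytes, 63 instead of 0 in non-myocytes and 847 instead of 513 for JQ1 in wild-type cardiomyocytes. Without a filter, members numbered 1 in the 20-week interaction, 1 for genotype under JQ1 at 8 weeks and 0 for JQ1 in PLNR9C cardiomyocytes, and genes 127, 8 and 2 in the interactions at 20 weeks, 8 weeks and in non-myocytes.

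Leaving out 1 library gave 1 to 2 members for genotype at 8 weeks (2 with all libraries), 0 to 1 for genotype under JQ1 at 8 weeks (0), 1 to 2 for JQ1 in PLNR9C (3) and 1 to 2 in wild type (2) at 8 weeks, 1 to 4 for JQ1 in wild type at 20 weeks (3), 0 to 4 for JQ1 in PLNR9C cardiomyocytes (1), 3 to 8 for genotype under JQ1 in cardiomyocytes (4), and 0 to 5 for JQ1 in PLNR9C (3) and 0 to 3 in wild type (3) in non-myocytes. Genes ranged over 1267 to 2088 for genotype at 8 weeks, 455 to 790 for genotype under JQ1 at 8 weeks, 643 to 2513 and 109 to 276 for JQ1 in PLNR9C and wild-type cardiomyocytes, 2391 to 4887 for genotype under JQ1 in cardiomyocytes, 1858 to 2490 for genotype under JQ1 and 1864 to 2565 for genotype in non-myocytes, and 8 to 87, 0 to 22 and 0 to 225 for the interactions at 20 weeks, 8 weeks and in non-myocytes.

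Values that missed the threshold changed sign: the genotype effect in cardiomyocytes ranged over -0.055 to 1.12 for Cnn1 (0.69 with all libraries), -0.28 to 0.25 for Myh11 (0.0007 with 2 groups only) and -0.042 to 0.16 for Pdgfrb when 1 library was left out, that of Pdgfrb at 8 weeks over -0.14 to 0.0071, and the JQ1 effect on Notch3 in 20-week PLNR9C ventricles over -0.053 to 0.048 (0.012 with no filter). Without scaling 20 member values changed sign, none of them past the threshold before or after, among them the genotype effect on Pdgfrb at 8 weeks (0.065) and 20 weeks (0.058), on Notch3 at 8 weeks (0.015) and in cardiomyocytes (0.016) and on Myh11 in cardiomyocytes (0.11), the JQ1 effect on Cspg4 in PLNR9C non-myocytes (-0.0062) and on Rgs5 and Myh11 in wild-type non-myocytes (-0.17 each), and the genotype effect under JQ1 on Notch3 at 20 weeks (0.20, adjusted p = 0.052). The cause of these changes was not tested, beyond the smaller number of libraries in a fit that left 1 out.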
